A study of Mus musculus with 8 samples.

Results

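Calprotectin is the heterodimer of S100a8 and S100a9, and these genes were examined together with 6 further genes of the S100 family, S100a1, S100a4, S100a6, S100a10, S100a11 and S100a13. The genes were taken by name, with earlier results of these data known, and every probe set that carried one of these symbols alone was used. This gave 9 probe sets for 7 of the 8 genes, out of 22626 probe sets and 12393 genes on the array. The only S100a11 probe set carries 3 gene symbols, and no value is given for that gene. S100a1 and S100a10 had 2 probe sets each.

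The arrays compared PICALM-rescued with Picalm-knockout hematopoietic cells, to learn which genes respond when the clathrin assembly protein PICALM is given back. The 4 lines, PICALM6A, PICALM6B, PICALM6D and PICALM84, here 6A, 6B, 6D and 84, were measured once in each state, which gave 4 arrays per group. PICALM-rescued cells carried human PICALM cDNA in the retroviral vector MSCVneo, and Picalm-knockout cells carried the empty vector. Both groups came from fetal liver of fit1 Picalm fit1-5R embryos (background strain B6(Cg)-TyrC-2J/J) at embryonic day 14, lack functional mouse Picalm, were immortalized with the leukemia fusion MLL-ENL, and grew with 5 ng/ml interleukin-3 and 50 ng/ml stem cell factor. The knockout state is therefore that of an MLL-ENL line, no cells with their own Picalm were on the arrays, and the PICALM level came from a viral vector. The study cautions that this level may be above the physiological one, with a possible dominant negative effect. The study calls the 4 lines biological replicates, and the p-values measure the spread between these lines.

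S100 proteins are small calcium-binding proteins with a pair of EF hands, and most work as dimers that change shape on binding calcium and then grip a partner protein. S100A8 and S100A9 fill much of the cytosol of neutrophils and are made by early monocytes. Released calprotectin binds zinc and manganese, which starves microbes, and acts on the receptors TLR4 and RAGE. Most S100 genes lie in a cluster, which in the mouse is on chromosome 3, where S100a1 and S100a13 are neighbours, as are S100a8 and S100a9.

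The promoter windows of the calprotectin genes are shown because both genes differed most between the states among the members. They run from 250 bases before to 50 bases after the annotated start (RefSeq, GRCm38.p6). The S100a8 window is chr3:90668821-90669120 on the plus strand, and the S100a9 window is chr3:90695672-90695971 on the minus strand. Capitals mark matches on either strand. The C/EBP motif was searched as TTNNGNAA. The PU.1 motif was searched as GAGGAA. The TATA box was searched as TATAAA. The AP-1 motif, searched as TGANTCA, had no match in either window.
S100a8: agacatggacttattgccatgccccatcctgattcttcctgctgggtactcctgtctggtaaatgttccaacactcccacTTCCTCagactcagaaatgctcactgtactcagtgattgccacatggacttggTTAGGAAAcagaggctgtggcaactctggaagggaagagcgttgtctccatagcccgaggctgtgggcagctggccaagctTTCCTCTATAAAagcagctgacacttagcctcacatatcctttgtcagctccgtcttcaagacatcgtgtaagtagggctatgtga
S100a9: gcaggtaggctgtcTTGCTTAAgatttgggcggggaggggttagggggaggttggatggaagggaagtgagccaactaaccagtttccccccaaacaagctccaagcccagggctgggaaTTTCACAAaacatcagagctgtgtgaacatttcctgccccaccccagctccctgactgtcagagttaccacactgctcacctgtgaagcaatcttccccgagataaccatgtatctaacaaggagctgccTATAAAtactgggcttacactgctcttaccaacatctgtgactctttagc
The S100a8 window held a TATA box at -30 from the start, directly after 1 of its 2 PU.1 matches, both on the minus strand (-170 and -36), and 1 C/EBP match at -117. The S100a9 window held 2 C/EBP matches, at -236 and -130, and the TATA box letters at position 1. Of 7 member windows, 2 held the C/EBP letters, 3 the PU.1, 3 the TATA box and 1 the AP-1 letters, while 40.7%, 28.3%, 13.6% and 7.81% of all 32851 windows did. A match describes the letters and shows no binding.

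The values are log2 expression after robust multi-array averaging, and each difference is rescued minus knockout. The array medians lay between 7.32 and 7.35. The hematopoietic markers Ptprc (CD45) and Myb were bright on all 8 arrays, at 12.22 to 12.54 and 13.01 to 13.33. The progenitor markers Kit, at 9.38 to 10.98, and Cd34, at 8.93 to 12.03, varied more. Both were lower on average in rescued cells (-0.26 and -1.25). The hepatocyte gene Alb was at 5.86 to 6.04 and the stromal gene Col1a1 at 5.29 to 5.62. The table holds 0 probe sets named Picalm, so the labels were not checked against it. Line 84 stood apart from the other lines, since the deviations of its arrays from the group means correlated at -0.66 to -0.55 with those of arrays of other lines in the other state, and member differences, and other values that it moves by over 1.5 times, are given with and without it. In limma, with each cell line as its own block, 0 probe sets passed an adjusted p of 0.05 on the higher side and 4 on the lower side, which were 2 probe sets of Sox4, 1 of Cd28 and 1 without a symbol, named after their values were seen.

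None of the 9 S100 probe sets passed in limma (0 of 9, against 0.0177% of all probe sets), with adjusted p from 0.342 to 0.975 and SAM called 0 of 9 with the lines paired or unpaired. At an unadjusted p under 0.05, 3 of 9 were higher in rescued cells and 0 lower, against 6.17% of all probe sets higher and 6.32% lower. These were S100a9, S100a6 and 1 of the S100a1 probe sets. In each of the 4 lines 6 of the 9, from 5 genes, were higher in rescued cells, against 11.9% of all probe sets, and 0 were lower, against 11.8%. The same count, 6 of 9, was higher in the 3 lines other than 84, against 19.9%, and 8 of 9 were higher on average, against 51.2%. Without the pairing by line, 1 of 9 had an unadjusted p under 0.05, against 2.58% of all probe sets higher. Leaving out 1 line gave 1 of 9 without 6A, 4 without 6B, 2 without 6D and 4 without 84, all higher. Of all genes, each by its brightest probe set, 3.73%, 4.54%, 6.11% and 8.19% were higher in these fits. The median difference of the 9 was 0.36, against 0.00 over the whole array, and 0.23 without line 84. The genes were taken with earlier results of these data known, and the study selected S100a9 on these arrays. The counts and medians of the members, here and below, are therefore not independent evidence. The 9 also overlap in content, with a Pearson correlation of 0.995 between both S100a1 probe sets and 0.98 between S100a8 and S100a9.

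S100a9, the calprotectin subunit that carries the zinc-binding tail, was at 14.42, 14.02, 13.84 and 13.82 in the rescued arrays of lines 6A, 6B, 6D and 84, against 12.78, 13.28, 13.50 and 10.43 in the knockout arrays. Every rescued array was above every knockout array, so the groups did not overlap, and S100a9 was the only member of which this held (1 of 9, against 1.88% of all probe sets). The knockout array of line 84 was far below the other knockout arrays. The mean was 14.03 ± 0.28 in rescued cells and 12.50 ± 1.41 in knockout cells (SD, n = 4 each), a difference of 1.53 with a standard error of 0.50, or 2.88-fold (95% interval of the difference 0.30 to 2.76). Its adjusted p was 0.351 in limma. By line, the fold was 3.12 in 6A, 1.67 in 6B, 1.26 in 6D and 10.5 in 84. Without line 84 it was 1.87-fold (difference 0.90, standard error 0.25, adjusted p = 0.294 in limma). S100a9 is also among the genes that the study selected on these arrays, so its direction is not independent evidence.

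S100a8, the other calprotectin subunit, was at 14.38, 14.21, 14.15 and 13.93 in the rescued arrays of the same lines, against 13.64, 13.87, 13.998 and 10.95 in the knockout arrays. The ID of its only probe set ends in _s_at, the mark of a shared probe set. The groups overlapped, since the rescued array of line 84 was below the knockout array of line 6D. The mean was 14.17 ± 0.18 in rescued cells and 13.12 ± 1.449 in knockout cells (SD, n = 4 each), a difference of 1.05 with a standard error of 0.48 (2.07-fold, 95% interval -0.14 to 2.24, adjusted p = 0.435 in limma). The line folds were 1.67, 1.26, 1.11 and 7.89 in 6A, 6B, 6D and 84. Without line 84 the fold was 1.33 (difference 0.41, standard error 0.12, adjusted p = 0.300 in limma).

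Both subunits thus had the same order of lines, 84 with the largest difference, then 6A, 6B and 6D. The mean of the pair differed by 3.19 in line 84, 1.19 in 6A, 0.54 in 6B and 0.24 in 6D. The 4 rescued arrays spanned 0.44 for S100a8 and 0.61 for S100a9, while the 4 knockout arrays spanned 3.04 and 3.08. The brightest probe set of each array was at 14.77 to 14.87, so the rescued values lie near the top of the scale, and the part of this in the narrow rescued span was not tested. Over the 8 arrays S100a8 and S100a9 had a Pearson correlation of 0.98, and of 0.998 over the 6 arrays of the other 3 lines, which share lines between groups. In a bulk sample, fewer cells that make calprotectin and less RNA per cell cannot be told apart.

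**Figure D1:**
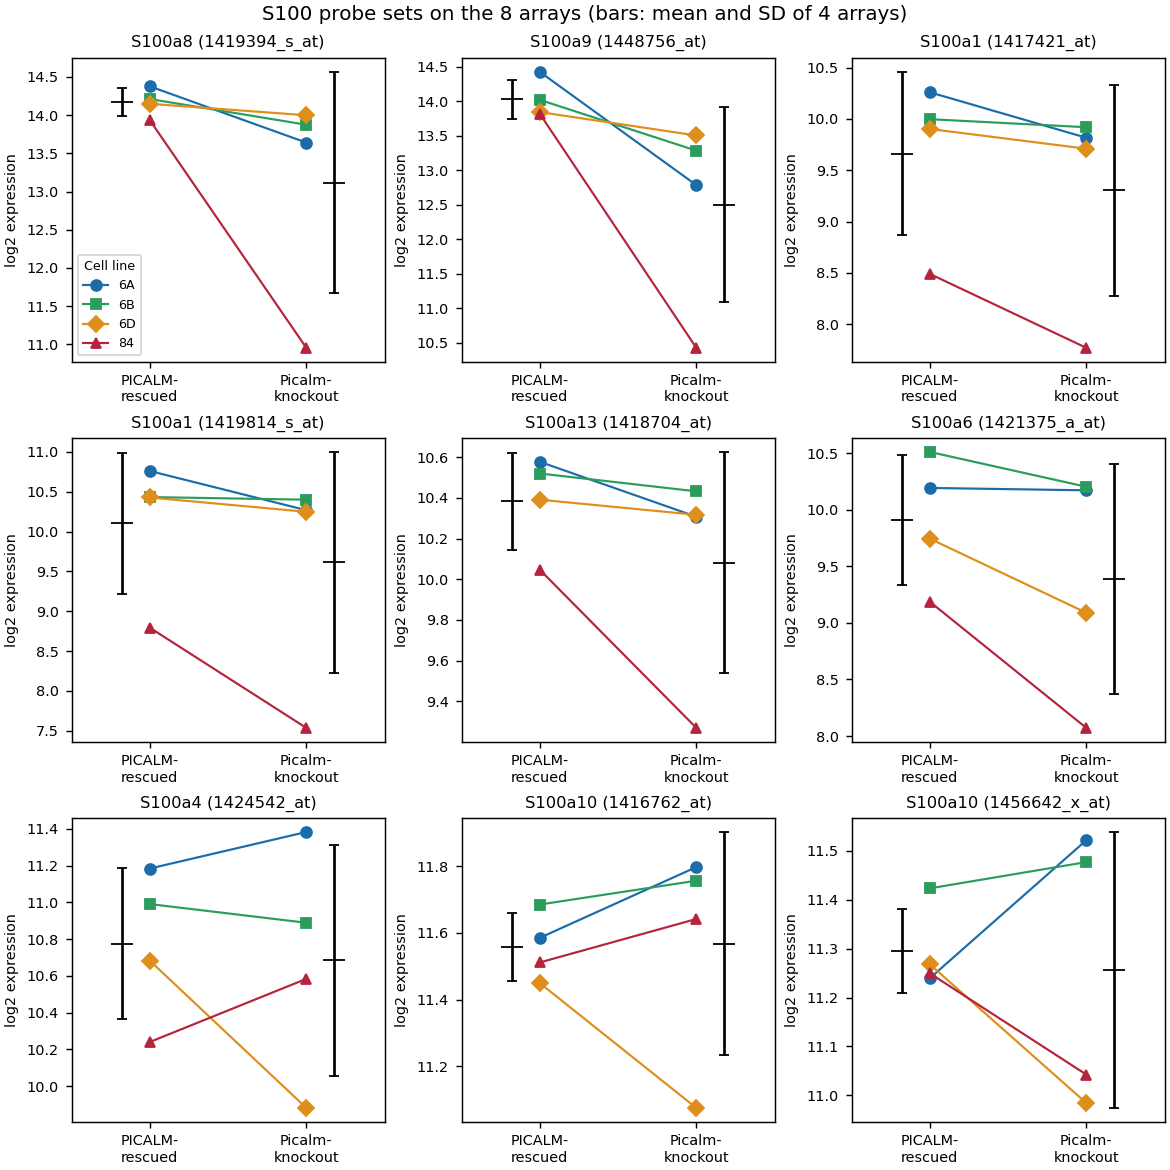
Log2 expression (y axis, a separate range in each panel) of the 9 S100 probe sets in PICALM-rescued and Picalm-knockout arrays (x axis), with 1 line joining the arrays of each cell line and bars for the mean and SD of 4 arrays. In the S100a8 and S100a9 panels the rescued arrays lie close together, between 13.82 and 14.42, and the knockout array of line 84 lies lowest, at 10.95 and 10.43.

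S100a1, best known for its action on calcium cycling in muscle, and S100a13, which takes part in release of FGF1 and interleukin-1 alpha without a signal peptide, lie head to head. Their start sites are 105 bases apart, and 204 bases of the S100a13 window (chr3:90514185-90514484, plus strand, RefSeq GRCm38.p6), in capitals, also belong to the S100a1 window. The sequence is shown because the levels of both genes followed each other, and a part of the shared window in this was not tested.
S100a13: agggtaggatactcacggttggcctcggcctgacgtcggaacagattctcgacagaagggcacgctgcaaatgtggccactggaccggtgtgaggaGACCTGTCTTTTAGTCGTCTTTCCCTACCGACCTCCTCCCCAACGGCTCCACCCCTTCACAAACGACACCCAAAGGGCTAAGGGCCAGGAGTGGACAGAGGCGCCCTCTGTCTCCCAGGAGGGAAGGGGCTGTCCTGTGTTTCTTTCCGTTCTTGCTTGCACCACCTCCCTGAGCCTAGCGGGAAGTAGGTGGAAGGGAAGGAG
The S100a1 probe set that is not marked as shared (its ID ends in a plain _at) was at 10.26, 10.00, 9.90 and 8.49 in the rescued arrays of lines 6A, 6B, 6D and 84, against 9.82, 9.92, 9.71 and 7.77 in the knockout arrays. Line 84 was lowest in both states and the groups overlapped, yet each rescued array was above the knockout array of its own line. The difference was 0.36 with a standard error of 0.11 (1.28-fold, adjusted p = 0.342 in limma), from 0.08 in 6B to 0.72 in 84. Without line 84 it was 0.24 (1.18-fold).

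The second S100a1 probe set, whose ID ends in _s_at, was at 10.76, 10.43, 10.43 and 8.79 in the rescued arrays, against 10.27, 10.40, 10.25 and 7.54 in the knockout arrays. It had the same order of lines, with line 84 lowest in both states. The difference was 0.49 with a standard error of 0.20 (1.40-fold, adjusted p = 0.409 in limma), and 0.23 without line 84 (1.18-fold).

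S100a13 was at 10.58, 10.52, 10.39 and 10.05 in the rescued arrays, against 10.31, 10.43, 10.32 and 9.27 in the knockout arrays. The groups overlapped, and the knockout array of line 84 was again lowest. The difference was 0.30 with a standard error of 0.13 (1.23-fold, adjusted p = 0.412 in limma), and 0.14 without line 84 (1.10-fold). Over the 8 arrays its correlation with the S100a1 probe sets was 0.95 to 0.97. Over the 6 arrays without line 84 it was 0.89 to 0.93. S100a13 also followed S100a8 (0.95 over 8 arrays, 0.80 over 6), S100a9 (0.90 and 0.83) and S100a6 (0.90 and 0.61).

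S100a6 (calcyclin), which binds annexins and the calcyclin-binding protein, was at 10.19, 10.51, 9.74 and 9.19 in the rescued arrays of lines 6A, 6B, 6D and 84, against 10.17, 10.20, 9.09 and 8.07 in the knockout arrays. The groups overlapped widely, and lines 6D and 84 were low in both states. The mean was 9.91 ± 0.57 in rescued cells and 9.38 ± 1.02 in knockout cells (SD, n = 4 each), a difference of 0.52 with a standard error of 0.18 (1.44-fold, adjusted p = 0.353 in limma), and 0.33 without line 84 (1.26-fold). Its order over the 4 lines was its own, with differences of 0.02 in 6A, 0.31 in 6B, 0.65 in 6D and 1.12 in 84. Line 6A, next to line 84 for calprotectin, thus had the smallest. Over the lines other than 84, the order was that of S100a4 and S100a10.

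S100a4 (metastasin), which binds the heavy chain of nonmuscle myosin, was at 11.18, 10.99, 10.68 and 10.24 in the rescued arrays, against 11.38, 10.89, 9.88 and 10.58 in the knockout arrays. It was higher in rescued cells of lines 6B and 6D and lower in those of 6A and 84. The mean difference was 0.09 with a standard error of 0.19 (95% interval -0.38 to 0.56, adjusted p = 0.866 in limma), and it came to -0.15 without line 6D and 0.23 without line 84.

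S100a10 (p11), which does not respond to calcium and joins annexin A2 in a tetramer, was at 11.59, 11.69, 11.45 and 11.51 in the rescued arrays by its plain _at probe set, against 11.80, 11.76, 11.07 and 11.64 in the knockout arrays. Only line 6D was higher in rescued cells. The difference was -0.01 with a standard error of 0.10 (95% interval -0.27 to 0.25, adjusted p = 0.975 in limma), and 0.03 without line 84. The other probe set, whose ID ends in _x_at, was at 11.24, 11.42, 11.27 and 11.25 in the rescued arrays, against 11.52, 11.48, 10.98 and 11.04 in the knockout arrays. Its difference was 0.04 with a standard error of 0.10 (adjusted p = 0.894 in limma), or -0.02 without line 84, and its sign in line 84 was the opposite of that of the plain one.

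**Figure D2:**
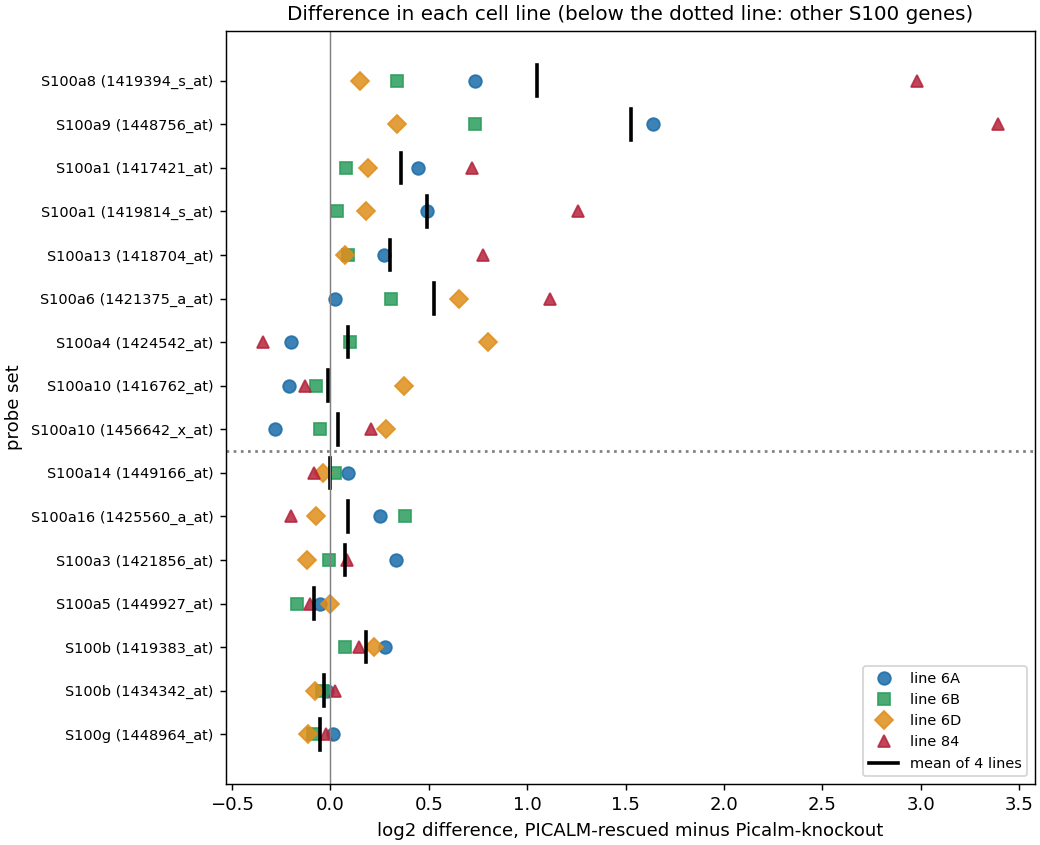
Log2 difference, PICALM-rescued minus Picalm-knockout (x axis), of each S100 probe set (y axis), with a symbol for each of the 4 cell lines, a bar for their mean, and the other S100 genes below the dotted line. Line 84 lies farthest to the right for S100a8 (2.98) and S100a9 (3.39), whereas S100a4 and S100a10 lie on both sides of 0.

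The members were sorted by the line with the largest difference, described here without a test. It was line 84 for 6 of the 9 probe sets, those of S100a1, S100a6, S100a8, S100a9 and S100a13, and line 6D for 3, those of S100a4 and S100a10. The 6 were also the members higher in all 4 lines, and among all probe sets higher in all 4 lines, line 84 had the largest difference in 50.5%. The shares of lines 84 and 6D over all probe sets were not computed. Over the whole array the differences spread most in line 84 (SD 0.35, against 0.22 in 6A, 0.18 in 6B and 0.15 in 6D). The median of the 9 probe sets was 0.78 in line 84, 0.27 in 6A, 0.28 in 6D and 0.09 in 6B. In line 6D all 9 were higher in rescued cells, against 48.9% of all probe sets. The count was 6 of 9 in line 6A (52.3% of all probe sets), 7 in 6B (49.9%) and 7 in 84 (46.9%). Without line 84, 4 of 9 had an unadjusted p under 0.05 (7.44% of all probe sets higher), and 0 passed after adjustment.

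A further 6 S100 genes had probe sets of their own, of 9 listed, and none of their 7 probe sets passed. Their levels ran from 3.97 to 7.76 over all arrays. S100b, best known from astrocytes, was at 5.91 ± 0.09 in rescued cells and 5.73 ± 0.09 in knockout cells by its brighter probe set (SD, n = 4 each, difference 0.18, standard error 0.05, adjusted p = 0.332 in limma), and its other probe set differed by -0.03 (-0.05 without line 84). The differences of S100a3, S100a5, S100a14, S100a16 and S100g were 0.07, -0.08, -0.00, 0.09 and -0.05, and without line 84 that of S100a14 was 0.03 and that of S100a16 was 0.19.

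**Figure D3:**
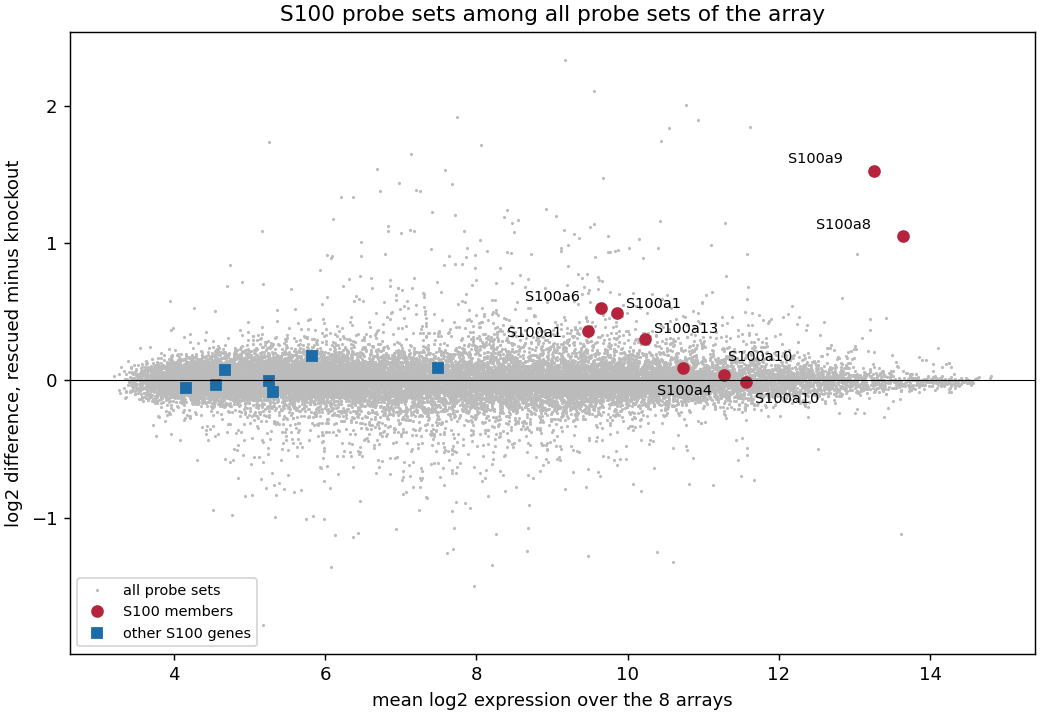
Log2 difference, PICALM-rescued minus Picalm-knockout (y axis), against the mean log2 expression over the 8 arrays (x axis) for all probe sets (grey), the S100 members (red circles) and the other S100 genes (blue squares). S100a9 (1.53) and S100a8 (1.05) lie above the other S100 probe sets, and the S100a10 probe sets lie at -0.01 and 0.04.

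The partners of S100 proteins were listed by their known binding, and 0 of 15 measured genes of 18 listed passed in limma. At an unadjusted p under 0.05, 2 were higher in rescued cells and 0 lower, while of all 12393 genes, each by its brightest probe set, 6.83% were higher and 6.24% lower. These 2 percentages are also the background of the counts of the lists that follow. The median difference was 0.07 (0.04 without line 84), against 0.01 over all genes. Ahnak, a giant scaffold protein that binds the complex of S100a10 and annexin A2, was at 9.56, 9.59, 9.10 and 8.73 in the rescued arrays, against 9.24, 8.84, 8.20 and 8.02 in the knockout arrays. It was higher in each line (difference 0.67, standard error 0.10, adjusted p = 0.191 in limma). Anxa1, annexin A1, a partner of S100A11, differed by 0.59 with a standard error of 0.14 (adjusted p = 0.314 in limma). Anxa2, the partner of S100a10, differed by 0.06 (-0.08 without line 84), Myh9, the myosin heavy chain bound by S100A4, by 0.10, and Cacybp, the calcyclin-binding protein, by -0.10.

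Receptors of calprotectin, the oxidase it feeds with arachidonic acid, and related genes such as Itgam and Alox5ap were a list of 17 genes. Of these 17, 15 were measured and 0 passed. Of the 15, 7 were higher and 0 lower at an unadjusted p under 0.05, against 6.83% and 6.24% of all genes. Neither Tlr4 nor Ager, which encodes RAGE, was among the 7. The median was 0.18 (0.11 without line 84). Itgam, the CD11b chain of the integrin on neutrophils and monocytes, was at 10.30, 9.96, 9.73 and 10.10 in the rescued arrays, against 9.48, 9.50, 9.51 and 8.71 in the knockout arrays. The groups did not overlap (1.65-fold, difference 0.72, standard error 0.19, adjusted p = 0.323 in limma). The study selected Itgam on these arrays, as it did Alox5ap. Ncf4 and Cyba, subunits of the phagocyte oxidase, differed by 0.27 and 0.22, and Alox5ap, which hands arachidonic acid to 5-lipoxygenase, by 0.22. Tlr4, a calprotectin receptor, differed by 0.27 (standard error 0.16, adjusted p = 0.514 in limma), and by 0.07 without line 84. Ager, at a mean of 5.85 over the arrays, differed by 0.13 (standard error 0.06, adjusted p = 0.415 in limma).

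Transcription factors of granulocytes and monocytes were measured for 13 of 14 listed genes, with 6 higher and 0 lower at an unadjusted p under 0.05 and 0 past adjustment, against 6.83% and 6.24% of all genes (median 0.23, or 0.14 without line 84). Without line 6A, and without 6D, 4 were higher, against 3.73% and 6.11% of all genes. Klf4, a factor of monocyte differentiation, was at 10.13, 10.06, 10.01 and 8.38 in the rescued arrays, against 9.88, 9.20, 8.99 and 5.74 in the knockout arrays. Its difference was 1.19 with a standard error of 0.37 (adjusted p = 0.343 in limma), and 0.71 without line 84 (1.64-fold). As for calprotectin it was largest in line 84, at 2.64. This also held for Gfi1, for Spi1 and for 50.5% of all probe sets higher in all 4 lines. Spi1, which encodes PU.1, differed by 0.23 (standard error 0.06), Gfi1 by 0.56 (0.14) and Stat3 by 0.24 (0.07), each higher in all 4 lines.

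Genes of other cell states were measured beside calprotectin, and their part in its result was not tested. The neutrophil granule list also holds the receptors Ltb4r1 and Cxcr2. Of its 19 measured genes, 12 were higher and 0 lower at an unadjusted p under 0.05, with 0 past adjustment, against 6.83% and 6.24% of all genes. The median was 1.03, or 0.65 without line 84, where 12 were again higher, against 8.19% of all genes. The list mean lay between 9.81 and 10.80 in rescued arrays, against 8.43 and 9.46 in knockout arrays. Lcn2, a siderophore-binding granule protein, differed by 1.83 (standard error 0.34), Camp, which encodes the cathelicidin, by 2.33 (0.54), Ngp by 2.01 (0.47) and Ltb4r1, a leukotriene B4 receptor, by 1.05 (0.20). The study selected these 4 genes on the same arrays, and also Ltf, Itgb2l, Lrg1, Ceacam1 and Pglyrp1, all among the 12. Neither their direction nor the count and median of the list is therefore independent evidence. By line the granule list differed by 1.54 in 6A, 0.67 in 6B, 0.36 in 6D and 1.51 in 84, which is the order of calprotectin except that 6A and 84 were nearly equal.

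Of 12 progenitor genes, 0 were higher and 5 lower at an unadjusted p under 0.05, against 6.83% and 6.24% of all genes, with a median of -0.20 (-0.24 without line 84). Their list mean was 10.23 to 11.06 in rescued arrays, against 10.66 to 11.49 in knockout arrays. Cd34, a marker of stem and progenitor cells, differed by -1.25 (standard error 0.24), Sox4 by -1.32 (0.16), Mef2c by -0.64 (0.07) and Mycn by -1.12 (0.27). None of these, the brightest probe set of each gene, passed in limma, whereas 2 further probe sets of Sox4 did. The study selected Mef2c and Mycn on these arrays too. Of 11 mast cell and basophil genes, 6 were higher and 0 lower, against 6.83% and 6.24% of all genes (4 higher without 6A, 6B or 6D, median 0.66, or 0.32 without line 84, list mean 5.71 to 7.76 in rescued arrays, against 5.53 to 6.65 in knockout arrays), with Cpa3, a mast cell protease, at a difference of 1.92. Of 13 monocyte and macrophage genes, 1 was higher and 3 were lower (median -0.13, or -0.01 without line 84, list mean 8.96 to 9.46 in rescued arrays, against 9.07 to 9.54 in knockout arrays), where Lyz2, lysozyme, differed by 0.45 (0.27 without line 84), Csf1r by -0.18, Ms4a7 by -0.37 (-0.24) and Cx3cr1 by -0.49 (-0.25). The count lower was 1 without 6A, 1 without 6B and 5 without 6D, and the count higher was 2 without 6A. Of all genes, 3.73%, 4.54% and 6.11% were higher and 3.66%, 3.5% and 5.51% lower without 6A, 6B and 6D. The erythroid, hepatocyte and stromal lists had 0 genes at an unadjusted p under 0.05, and the lymphoid list had 1 higher (Pax5, 0.13) and 1 lower (Cd79b, -0.71).

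**Figure D4:**
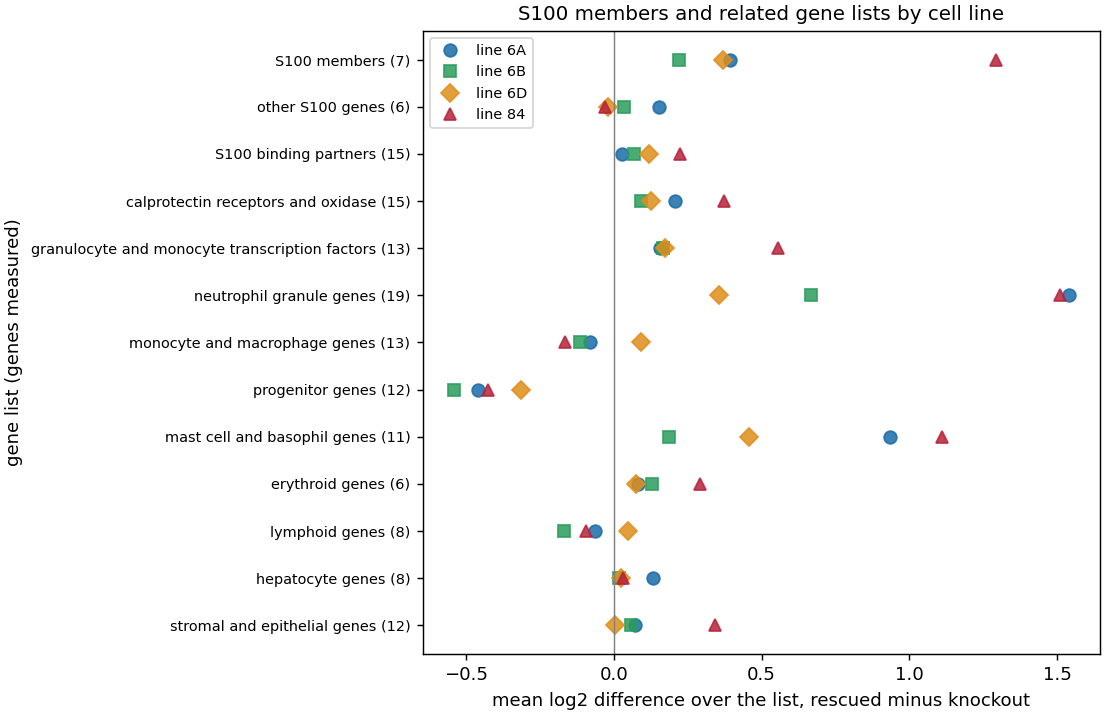
Mean log2 difference over each gene list, PICALM-rescued minus Picalm-knockout (x axis), for the S100 members and 12 related lists (y axis, with the number of genes measured) in each of the 4 cell lines. The S100 members lie at 1.29 in line 84 and at 0.22 to 0.39 in the other lines. The neutrophil granule list lies above 0 in each line, as do several other lists, among them the hepatocyte and stromal ones.

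The genes that followed the mean of S100a8 and S100a9 most closely were sought among 10396 probe sets, and the correlations describe 8 arrays from 4 lines. Ift80, of intraflagellar transport, had a Pearson correlation of 0.997 over the 8 arrays and 0.968 over the 6 arrays without line 84. Wfdc21, which the study selected on these arrays as it did Lat2, had 0.996 and 0.98, Prom1, the surface glycoprotein CD133, 0.99 and 0.97, Tbl1xr1 0.99 and 0.93 and B4galt6 0.99 and 0.91. The most opposite were Septin11 (-0.99 and -0.98), Tes (-0.99 and -0.90), Eif3e (-0.98 and -0.89), H2-K1 (-0.98 and -0.94) and Lat2 (-0.98 and -0.94). The value of line 84 in knockout cells carries much of the spread over 8 arrays. Among the members, S100a4 and S100a10 followed each other (0.76 to 0.83 over 8 arrays, 0.83 to 0.92 over 6). S100a8 and S100a4 did not (0.12 and -0.09). S100a6 had 0.65 with S100a4 and 0.39 and 0.80 with the S100a10 probe sets over 8 arrays. Over 6 arrays these were 0.88, 0.92 and 0.85. With S100a8 and S100a9, S100a6 had 0.79 and 0.73 over 8 arrays, but 0.09 and 0.14 over 6.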

How the data were processed

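Total RNA of 8 cultures was hybridized to Affymetrix mouse arrays, for which the methods and the labels give different versions. The authors normalized the arrays by robust multi-array averaging, and the log2 values were deposited in that form and not normalized again here. The number of arrays, 4 in each group, limits the precision. The table held 22690 probe sets with 64 controls, which were dropped. Among the 22626 tested, 20380 carried 1 gene symbol, 691 carried several and 1555 none.

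PICALM-rescued and Picalm-knockout arrays were compared in limma 3.58.1 (R 4.3.3, statmod 1.5.0), two-sided, with the cell line as a block and Benjamini-Hochberg adjustment over all probe sets at 0.05. The methods name SAM at an FDR of 12.3% and do not state whether the arrays were paired. Each line gave both of its arrays, which pairs them, and after removing group means the paired arrays correlated at 0.623 to 0.811. SAM was computed from its published statistic over 16 sign changes or 70 arrangements. With 4 pairs the smallest two-sided p by sign changes is 0.125. For related lists the probe set with the highest mean stood for a gene. The named genes were the up to 4 with the smallest p among those with 1 direction in all lines. Anxa2, Tlr4 and Ager were added for their known ties to the members, and Cd79b too, all after their values were seen. Further genes of the neutrophil granule list were named for what the list holds or because the study selected them. The members and lists were chosen with earlier results of these data known. Alternatives were the fit without the block, SAM, the FDR level of the methods, other normalizations, array weights, a filter that drops the dimmest 40%, a variance trend, averaging the probe sets of a gene and leaving out each line.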

Additional observations from a re-analysis of the deposited data

Results flagged for a closer look

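In 8 of 32 groups of 4 arrays, 1 array lay far from the other 3, by the gap to the nearest array over the range of the group. The limit used is the 95% critical value of Dixon's test, which chance passes in about 1 in 20 such groups, and the groups share arrays and probe sets of 1 gene. In 7 of the 8 the array was of line 84.

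Among Picalm-knockout arrays, line 84 was lowest for S100a8 (10.95, the others 13.64 to 13.998), for S100a13 (9.27, the others 10.31 to 10.43) and for both S100a1 probe sets (7.77, the others 9.71 to 9.92, and 7.54, the others 10.25 to 10.40). Among PICALM-rescued arrays, line 84 was also lowest for the S100a1 probe set ending in _s_at (8.79, the others 10.43 to 10.76). For S100a5 line 84 was highest in both states, at 5.88 in rescued cells (the others 5.00 to 5.14) and 5.98 in knockout cells (the others 5.11 to 5.17). The remaining one was the S100a10 probe set ending in _x_at, highest in the rescued array of line 6B (11.42, the others 11.24 to 11.27).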

How the results depend on the processing

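None of the 9 S100 probe sets passed under any alternative run here. The study, which used SAM, nevertheless lists S100a9, by the same probe set, among its top genes higher in rescued cells. SAM as computed here, paired or unpaired, did not call S100a9 at the FDR level named in the methods. The selection of S100a9 by the study was therefore not reproduced, and the reason was not tested. The count higher in all lines stayed at 6 under each alternative run for it (other normalizations, the filter and each line left out). The filter does not change the line differences, and leaving out a line cannot lower this count, so only the normalizations could have lowered it through the values. With the lines unpaired (no replicate block), 1 of 9 had an unadjusted p under 0.05 and 0 probe sets of the array passed on the lower side, against 4 with the block. Whole-array calls moved more. On the higher side (0) they were 1 in SAM paired, 4 in SAM unpaired, 1 at the FDR level named in the methods, 1 with array weights and 4 with a variance trend, and 107 and 10 in SAM paired and unpaired at that level. On the lower side (4) they were 166, 19, 17, 24 and 28 in the same order, 455 and 35 in SAM at that level, 8 without the dimmest probe sets, and 0 to 0 on leaving out each line. Genes of the related lists called (0) were 3 in SAM paired (Cd34, Mef2c and Sox4, lower), 2 in SAM unpaired (Mef2c lower, Ltb4r1 higher), 2 with array weights (Mef2c and Sox4, lower), 1 with a variance trend (Mef2c, lower), and 8 and 4 in SAM paired and unpaired at the methods' level. SAM unpaired and both SAM runs at that level were chosen after seeing the data. The cause of these shifts was not tested.

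Of 108 alternatives for single S100 probe sets, 100 kept their direction and side of the threshold and 8 turned the sign, all of S100a4 or S100a10. The fit without the block, SAM, the filter and the variance trend return the same difference. They could therefore change only the side of the threshold. On leaving out each line, S100a4 ran from -0.15 to 0.23, S100a10 from -0.1383 to 0.0577 by its plain probe set and from -0.0429 to 0.1457 by the one ending in _x_at. The plain S100a10 probe set came to 0.0165 with array weights and 0.0144 as the mean over probe sets. S100a9 ran from 0.90 to 1.92 and S100a8 from 0.41 to 1.35 over all alternatives, lowest without line 84.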
